A study of Homo sapiens with 10 samples.

Results

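Small nuclear RNA (snRNA) genes encode the short, non-coding RNAs of the spliceosome, the machine that removes introns from messenger RNA precursors. Members were the RefSeq GRCh38 genes of the snRNA class, pseudogenes excluded, whose symbol is RNU followed by a digit or RNVU1 followed by a suffix and does not end in P. The rule found 40 genes among the 59792 genes of the RefSeq table. They were 4 U1 genes, 17 U1 variant genes (RNVU1), 2 U2, 2 U4, 5 U5 and 5 U6 genes, and 1 gene each for U4ATAC, U11, U12, U6ATAC and U7. RNU7-1 met the rule by its symbol, although U7 serves the 3′ end processing of histone messenger RNAs and is not part of the spliceosome.

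Chromatin of wild-type HCT116 cells, an established line from a human colorectal carcinoma, was profiled by CUT&Tag, in which an antibody guides a transposase that cuts and tags the DNA next to its target. The samples were 3 for POLR1A and 3 for POLR2A, the large catalytic subunits of RNA polymerases I (Pol I) and II (Pol II), 3 for the heterochromatin mark H3K9me3 and 1 for the promoter mark H3K4me3. Each replicate started from 100000 to 200000 cells, and each replicate had its own day and its own newly thawed aliquot of cells. No sample against an RNA polymerase III (Pol III) subunit and no control antibody sample was used here.

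Each target had 1 deposited peak list without replicate columns, so replicate error is unknown for all values and no test between groups was possible. On chromosomes 1 to 22 and X the lists held 19997 POLR2A, 3812 POLR1A, 17181 H3K4me3 and 16414 H3K9me3 peaks. The H3K4me3 list is attached to its sample, and the targets of the others were read from abbreviations in their peak names, matched to the antibodies in the labels. The fold enrichment of a peak is the authors' own linear ratio, and it was used to rank peaks only within its own list. Read depth per sample is unknown, so a missing peak does not show that a target was absent. Of 10 colon epithelium markers, 7 had a POLR2A peak within 1 kb of a gene end and 7 an H3K4me3 peak, for both EPCAM, CDH1, KRT19, KRT8, KRT18, ELF3 and SOX9. VIL1, CDX1 and CLDN7 had neither. Over all protein-coding genes, 41.3% had POLR2A and 54.6% H3K4me3 at either end, so counts in such short lists are only a description. Among 5 leukocyte markers 1 had POLR2A (CD14) and 0 had H3K4me3, and fibroblast markers 0 and 1 among 5. Of 5 neuronal markers, SYT1 and TUBB3 had both and RBFOX3 had POLR2A alone.

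The snRNAs pair with splice sites and with each other: U1 recognises the 5′ splice site and U2 the branch site, and U4, U5 and U6 join as a tri-snRNP before catalysis. U11, U12, U4ATAC and U6ATAC play the matching parts for the rare minor class of introns. Although all are short RNAs, U6 and U6ATAC are made by Pol III and the others by Pol II. The promoters of both groups lie upstream of the gene and share a distal element, often holding an octamer bound by POU2F1, and a proximal sequence element bound by the SNAPc complex, and a TATA box beside the proximal element directs U6 genes to Pol III.

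No member had its own entry in the RefSeq promoter table, but for some the 300-base window around the start of a neighbouring gene covered adjoining DNA. The 4 windows below lie beside a U4 gene with a POLR2A peak, 1 U6 gene with that peak and 1 without it, and the minor class gene RNU12. All are GRCh38.p14 sequence credited to RefSeq and are printed so that they read toward the snRNA gene. Capitals mark exact matches to the octamer ATGCAAAT (shown as its reverse complement where it lies on the other strand) or to a proximal element approximated as ACC and, 8 bases later, AA, any base, G. The windows are chr12:120291939-120292238 on the minus strand beside RNU4-2, and on the plus strand chr19:893138-893437 beside RNU6-9, chr19:1021074-1021373 beside RNU6-2 and chr22:42614834-42615133 beside RNU12.
RNU4-2: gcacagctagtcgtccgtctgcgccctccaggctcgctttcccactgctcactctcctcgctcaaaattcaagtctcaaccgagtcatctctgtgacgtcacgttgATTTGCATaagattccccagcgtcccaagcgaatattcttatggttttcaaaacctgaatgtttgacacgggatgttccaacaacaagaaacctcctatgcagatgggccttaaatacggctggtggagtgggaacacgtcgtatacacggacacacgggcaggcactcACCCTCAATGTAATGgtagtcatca
RNU6-9: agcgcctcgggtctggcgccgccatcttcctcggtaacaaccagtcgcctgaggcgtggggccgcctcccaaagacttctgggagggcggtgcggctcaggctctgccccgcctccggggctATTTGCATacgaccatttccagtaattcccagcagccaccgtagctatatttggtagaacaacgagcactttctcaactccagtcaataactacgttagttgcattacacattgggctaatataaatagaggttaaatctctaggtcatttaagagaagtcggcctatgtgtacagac
RNU6-2: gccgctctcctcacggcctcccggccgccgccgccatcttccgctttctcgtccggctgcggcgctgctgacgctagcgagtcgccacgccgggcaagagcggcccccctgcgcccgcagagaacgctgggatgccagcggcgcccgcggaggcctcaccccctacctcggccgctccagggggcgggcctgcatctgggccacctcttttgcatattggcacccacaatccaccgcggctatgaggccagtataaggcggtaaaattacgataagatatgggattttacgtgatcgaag
RNU12: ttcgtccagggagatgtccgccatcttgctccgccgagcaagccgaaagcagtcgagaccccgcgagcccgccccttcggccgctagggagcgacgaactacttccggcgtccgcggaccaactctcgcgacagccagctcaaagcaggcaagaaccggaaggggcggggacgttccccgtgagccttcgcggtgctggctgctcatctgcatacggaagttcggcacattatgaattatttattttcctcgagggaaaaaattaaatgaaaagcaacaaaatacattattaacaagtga

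The RNU4-2 window held an octamer 221 bases from the gene and a proximal element match 45 bases from it. In the RNU6-9 window the octamer lay 216 bases from the gene. The window beside RNU6-2 ended 148 bases short of the gene and that beside RNU12 ended 110 bases short, and these letters were not found in either. Searched on both strands, the octamer occurred in 1.77% and the proximal element in 9.64% of all 34935 windows of the table. A match is a description of the letters and not a measured binding site.

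A pair of U1 variant genes with near-identical surroundings is shown because their peaks differ. RNVU1-6 had a strong POLR2A peak and RNVU1-2A had no peak of any list. Their adjoining windows are chr1:146052346-146052645 and chr1:144551965-144552264, both on the minus strand, and capitals mark a proximal element match 33 bases from RNVU1-2A. The RNVU1-6 window ends 101 bases short of its gene and the RNVU1-2A window 21 bases short, so the stretch that holds this match was not covered at RNVU1-6.
RNVU1-6: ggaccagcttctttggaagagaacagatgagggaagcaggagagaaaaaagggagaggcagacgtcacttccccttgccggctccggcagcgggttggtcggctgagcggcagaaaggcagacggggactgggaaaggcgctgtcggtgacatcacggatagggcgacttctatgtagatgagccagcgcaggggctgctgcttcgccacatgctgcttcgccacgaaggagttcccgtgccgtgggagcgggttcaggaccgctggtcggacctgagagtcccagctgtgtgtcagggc
RNVU1-2A: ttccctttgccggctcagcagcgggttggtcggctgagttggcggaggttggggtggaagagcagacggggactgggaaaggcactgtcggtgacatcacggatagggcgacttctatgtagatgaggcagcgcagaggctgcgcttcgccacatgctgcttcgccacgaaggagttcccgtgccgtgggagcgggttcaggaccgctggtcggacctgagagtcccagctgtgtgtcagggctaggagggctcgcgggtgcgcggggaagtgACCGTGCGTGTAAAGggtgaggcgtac

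Over the stretch both windows cover, 223 of 230 aligned base pairs were identical, with 15 gap bases, an identity of 91.0% with gap bases counted as differences. How reads from near-identical copies were assigned is not given in the sources used here, so a peak or its absence at 1 copy is uncertain. The same caution was kept for every RNVU1 gene below, for RNU1-1 to RNU1-4, for RNU2-1 and for the U6 genes. Beyond the pair above no sequences were compared, so how alike those copies are was not tested. The RNU7-1 gene itself, chr12:6943816-6943878 and printed from the plus strand, was covered whole by the window of its neighbour C12orf57 and is the only complete member sequence that could be read.
RNU7-1: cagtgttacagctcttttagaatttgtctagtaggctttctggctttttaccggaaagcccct

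POLR2A peaks lay at most snRNA genes. Within 1 kb of the gene body, 28 of 40 members had one (70.0%, exact 95% interval 53.5 to 83.4%, counting error only). The same windows held a POLR2A peak at 6.3% of the 8256 other genes of at most 300 bp, at 2.0% of the 1800 snRNA pseudogenes and, within 1 kb of a gene end, at 22.1% of the 39634 protein-coding gene ends. The members' interval thus lay above all 3 backgrounds, and above the 41.3% of protein-coding genes with POLR2A at either end. Members include related copies and shared windows and are not independent, so this is a description and not a test. Windows differ in length, since a snRNA window spans the gene and a gene end window does not.

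By class, 22 of 30 U1, U2, U4 and U5 genes had a POLR2A peak (73.3%, 54.1 to 87.7%), as did 4 of 4 among U4ATAC, U11, U12 and U7. Of the 6 genes made by Pol III, RNU6-2 and RNU6ATAC had one (33.3%, 4.33 to 77.7%). The intervals of the Pol II and Pol III classes overlapped, the latter has only 6 genes, and a difference between them was not tested. Within the Pol II class, the genes without POLR2A were all U1 or U1 variant copies. POLR2A lay at 2 of 4 U1 and 11 of 17 U1 variant genes, and at all 2 U2, 2 U4 and 5 U5 genes. A POLR2A peak touched the gene body at 26 of the 34 Pol II-made genes, all of those with a peak, and at 1 of the 6 Pol III class genes, RNU6-2, of the 2 with a peak.

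H3K4me3 was found at 21 of 40 members (52.5%, 36.1 to 68.5%), beside 6.31% of other short genes, 1.22% of snRNA pseudogenes and 29.2% of protein-coding gene ends. Gene ends include both ends of each gene. Counted per gene, 54.6% of protein-coding genes had H3K4me3 at either end, which lies inside the members' interval. It lay at 13 of 30 in the Pol II class (43.3%, 25.5 to 62.6%) and 5 of 6 in the Pol III class (83.3%, 35.9 to 99.6%), again with overlapping intervals. An H3K4me3 peak touched the gene body at 9 of those 30 genes and at 2 of those 6. POLR1A was found at 10 of 40 members (25.0%, 12.7 to 41.2%), against 1.78% of other short genes, 0.444% of snRNA pseudogenes and 5.71% of protein-coding gene ends. Per protein-coding gene at either end, the POLR1A share was 11.2%. H3K9me3 was found at 1 of 40 (2.5%, 0.0633 to 13.2%), and its backgrounds of 1.44%, 0.778% and 1.42% all lay inside that interval.

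**Figure D1:**
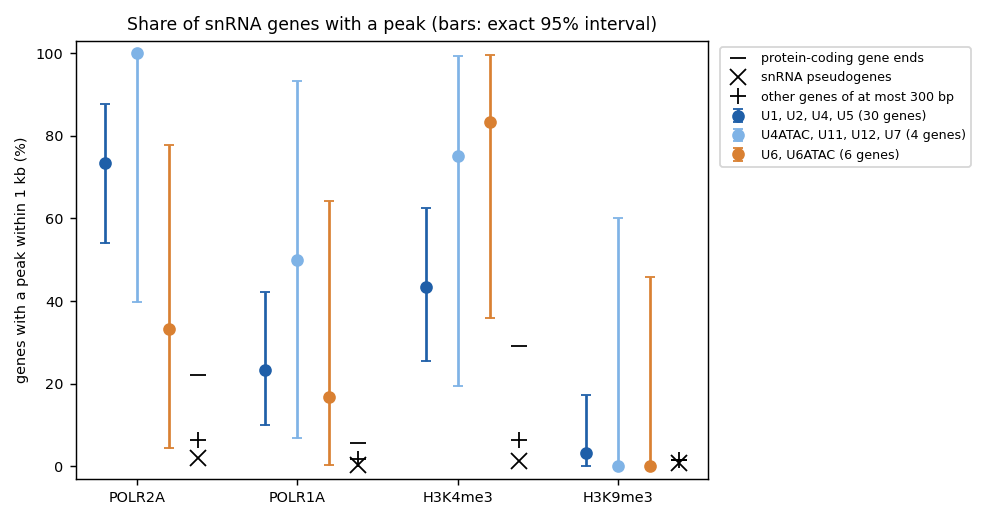
Share of snRNA genes with a peak within 1 kb (y axis, percent) for each of the 4 targets, in 3 classes, with exact 95% intervals for counting error; black symbols are the shares over protein-coding gene ends, snRNA pseudogenes and other genes of at most 300 bp. POLR2A reached 73.3% of U1, U2, U4 and U5 genes, whereas H3K9me3 lay at or near 0 in every class.

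The 4 U1 genes, whose RNA recognises the 5′ splice site, lie within a cluster on chromosome 1. They had few peaks, at percentile 56.7 of the POLR2A list or lower. RNU1-2 (chr1:16895980-16896143) had POLR2A peaks of fold enrichment 6.13 and 4.38, 1 reaching into its body and 1 beyond it on the high-coordinate side. RNU1-1 (chr1:16514122-16514285) had a single peak of 2.8, at percentile 12.7 of the POLR2A list and with a −log10 q of 1.38. RNU1-3 and RNU1-4 had no peak of any list. None of the 4 had a POLR1A, H3K4me3 or H3K9me3 peak.

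The U1 variant genes are related copies of U1 on chromosome 1, and they held the strongest POLR2A peaks of all members. The peak at RNVU1-14 (chr1:145281116-145281279) reached 22-fold, percentile 99.4 of the list. RNVU1-27 (16.1), RNVU1-6 (15.9), RNVU1-31 (15.3), RNVU1-7 (14.8), RNVU1-15 (13.9) and RNVU1-30 (13.0) followed, at percentile 90.3 or above. Weaker POLR2A peaks lay at RNVU1-18 (9.35), RNVU1-4 (8.66), RNVU1-3 (8.5) and RNVU1-1 (4.7). The other 6 variant genes, RNVU1-19, RNVU1-17, RNVU1-26, RNVU1-2A, RNVU1-28 and RNVU1-8, had no peak of any list, so the 17 copies divided into 11 with POLR2A and 6 with nothing.

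Of the 11 variant genes with POLR2A, 10 also had H3K4me3, the exception being RNVU1-18. The strongest H3K4me3 peaks lay at RNVU1-3 (13.5), RNVU1-7 (11.1) and RNVU1-30 (9.57), and the weakest at RNVU1-15 (4.28). The remaining values were 8.96 at RNVU1-14, 8.53 at RNVU1-31, 8.37 at RNVU1-4, 7.64 at RNVU1-1, 6.71 at RNVU1-27 and 5.75 at RNVU1-6. No variant gene lay closer than 8590 bp to an annotated protein-coding gene end, so these peaks do not lie at such ends. RNVU1-6, however, lies 352 bp from an end of the long non-coding RNA (lncRNA) gene LINC01719. The window printed above for RNVU1-6 is that of LINC01719, and the H3K4me3 peak covers it whole. Which gene the peaks at RNVU1-6 belong to cannot be told apart. RNVU1-14, RNVU1-15 and RNVU1-27 stood at 8621, 8650 and 8620 bp from the ends of NBPF20, NBPF15 and NBPF14, members of a duplicated gene family, and RNVU1-19, without peaks, at 8590 bp from NBPF26.

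POLR1A lay at 6 variant genes, with 7.9-fold at RNVU1-30, 6.3 at RNVU1-6, 5.1 at RNVU1-31, 4.78 at RNVU1-15, 4.31 at RNVU1-27 and 3.34 at RNVU1-7. These are ordinary to weak values for that list, from percentile 1.21 at RNVU1-7 to percentile 82.8 at RNVU1-30. RNVU1-14, with the strongest POLR2A peak, had no POLR1A peak. RNVU1-7 (chr1:148038753-148038916) was the only member with all 4 targets, and its H3K9me3 peak of 4.91 overlapped the gene with a −log10 q of 3.34.

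U2 pairs with the branch site of the intron. RNU2-2 (chr11:62841619-62841809), which lies at the end of the protein-coding gene WDR74, had a POLR2A peak of 9.26 and 1039 bp. Whether that peak belongs to WDR74 or to RNU2-2 cannot be told apart. RNU2-1 (chr17:43233790-43233977), at the edge of an array of near-identical copies, had POLR2A peaks of 5.87 and 4.19. Neither had an H3K4me3, POLR1A or H3K9me3 peak.

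U4 keeps U6 inactive until the spliceosome is activated. RNU4-1 (chr12:120293093-120293237) and RNU4-2 (chr12:120291759-120291903) lie so close that their windows overlap, and they share their peaks. The stronger POLR2A peak, 8.67-fold and 1485 bp wide, covers RNU4-2 and the whole window printed above, octamer and proximal element included. A second peak of 5.35 reaches into RNU4-1. Between the genes lay an H3K4me3 peak of 5.82, with its summit 332 bp from RNU4-2 and 858 bp from RNU4-1. SIRT4 has an end at RNU4-2, and the window printed above is that of SIRT4. Whether the H3K4me3 peak and the stronger POLR2A peak belong to SIRT4 or to U4 cannot be told apart.

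U5 holds the exons during splicing, and all 5 of its genes had POLR2A. RNU5E-1 (chr1:11908152-11908272) had 12-fold in a peak of 1419 bp, RNU5A-1 11.2, RNU5D-1 11.2, RNU5B-1 10.4 and RNU5F-1 8.0. These values lie close together, between percentiles 71.1 and 88.1 of the list. RNU5E-1 was the only U5 gene with other targets, with POLR1A of 6.13 and H3K4me3 of 5.29. RNU5A-1, RNU5B-1, RNU5D-1 and RNU5F-1 had POLR2A alone, and each lay over 2 kb from any protein-coding gene end.

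The minor class and U7 genes were marked in every case by POLR2A. RNU12 had 12.9-fold, RNU7-1 11.1, RNU4ATAC 11 and RNU11 10.0, in peaks of 1201, 1047, 1196 and 1276 bp. H3K4me3 lay at RNU4ATAC (13.6), RNU12 (10.8) and RNU7-1 (6.71) and not at RNU11. POLR1A lay at RNU12 (5.46) and RNU4ATAC (5.1). RNU11, RNU7-1 and RNU12 lie 331, 383 and 361 bp from ends of TAF12, C12orf57 and POLDIP3. Ends of lncRNA genes lie near as well, with CLASP1-AS1 at 712 bp from RNU4ATAC, TAF12-DT at 67 bp from RNU11 and LOC124905127 at 465 bp from RNU12. Which gene these wide POLR2A peaks belong to cannot be told apart.

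U6 catalyses the splicing reaction together with U2. RNU6-2 (chr19:1021522-1021628) was the only U6 gene with POLR2A, at 10.9-fold with the summit 8 bp from the gene. It lies 399 bp from an end of TMEM259, so which of these genes the peak belongs to cannot be told apart. RNU6-9 (chr19:893484-893590), only 297 bp from an end of MED16, had H3K4me3 peaks of 7.62 and 6.3 and no POLR2A peak, the second of them at chr19:893140-893482 over nearly all of the window printed above. RNU6-2 had H3K4me3 peaks of 10.2 and 2.54.

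RNU6-1 (chr15:67839939-67840045) lies 5357 bp from the nearest protein-coding gene end and 1060 bp from an end of the lncRNA gene SKOR1-AS1. It had H3K4me3 of 10.2 and a POLR1A peak of 4.25 without POLR2A. It was the only member with POLR1A and no POLR2A peak, at a −log10 q of 2.29. RNU6-8 had a weak H3K4me3 peak of 4.28, and its neighbour RNU6-7 had no peak. RNU6ATAC (chr9:134164439-134164564) had the strongest H3K4me3 peak of all members, 14.2, and POLR2A of 11.4. Both lay to the high-coordinate side, with summits 599 and 407 bp from the gene, and neither touched it. An end of the lncRNA gene LOC124902297 lies 1 bp from RNU6ATAC, so which of these genes the peaks belong to cannot be told apart.

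**Figure D2:**
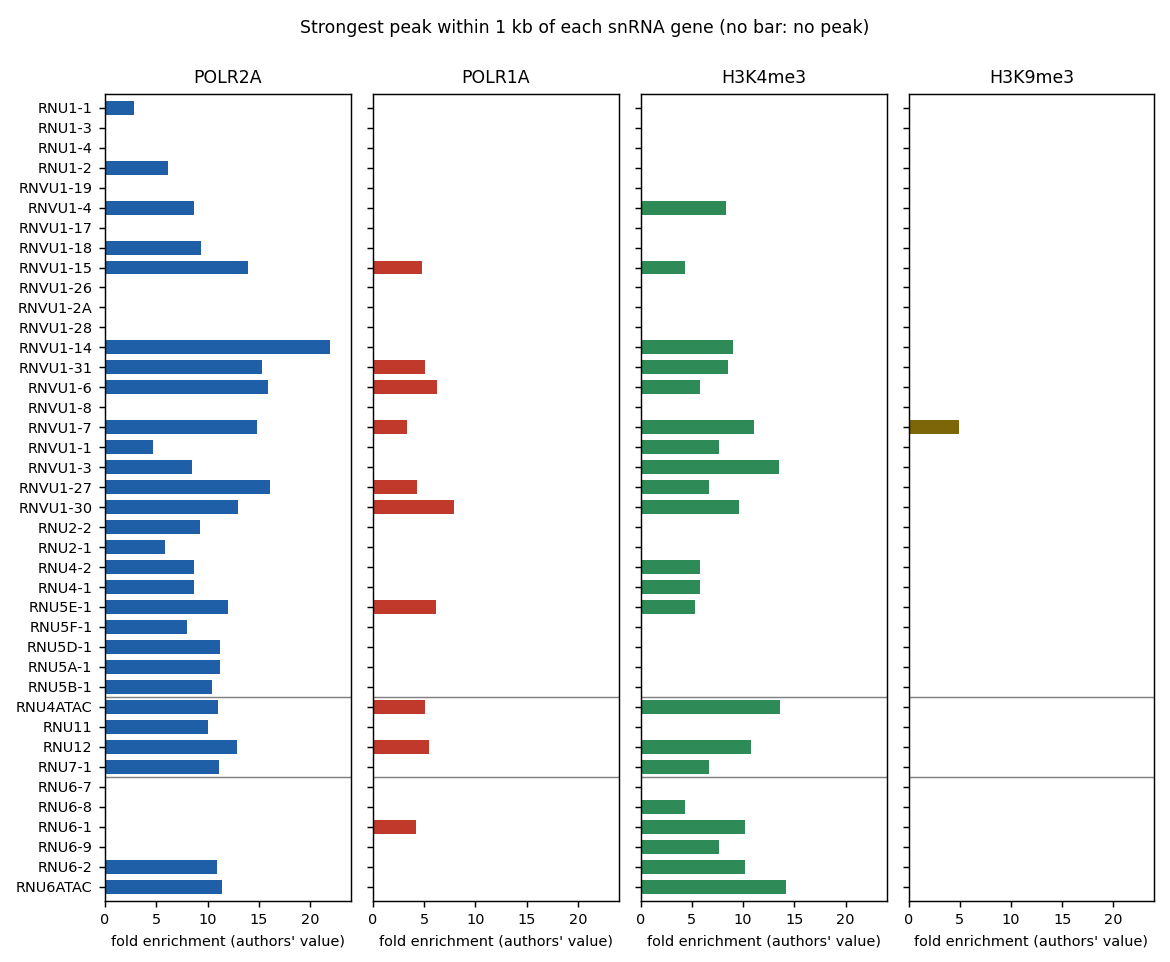
Authors' fold enrichment (x axis, linear) of the strongest peak within 1 kb of each of the 40 genes, in 1 panel per target; grey lines separate U1 to U5, the minor class with U7, and U6 with U6ATAC. POLR2A is highest at RNVU1-14 (22), the U5 genes sit between 8.0 and 12, and 9 genes have no bar in any panel; values are comparable within a panel and not between panels.

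Across targets, 18 members had POLR2A with H3K4me3, 10 had POLR2A without it, 3 had H3K4me3 without POLR2A and 9 had neither. The 3 with H3K4me3 alone of this pair were all U6 genes, RNU6-1, RNU6-8 and RNU6-9. The 10 with POLR2A and no H3K4me3 were RNU1-1, RNU1-2, RNVU1-18, RNU2-1, RNU2-2, RNU5A-1, RNU5B-1, RNU5D-1, RNU5F-1 and RNU11. Among members with POLR2A, H3K4me3 was found at 64.3% (18 of 28, 44.1 to 81.4%). Among protein-coding gene ends with POLR2A the share was 92.4%, above that interval, which treats members as independent although some are related copies. For POLR1A, the share among members with POLR2A was 32.1% (9 of 28, 15.9 to 52.4%) beside 24.7% of such gene ends, which lies inside the interval.

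The members' POLR2A peaks were wide for their list. There were 34 distinct POLR2A peaks at members, with a median width of 654.5 bp against 244 bp for the whole list. By width, 30 of the 34 exceeded the list median and 21 fell in the widest 10% of the list, from 523 bp up. A wide peak reaches a window more easily than a narrow one, and POLR2A peaks at other genes were not compared. Whether such width is particular to snRNA genes was therefore not tested. Their median fold enrichment was 9.68, against 5.47 for the list, and 27 lay above the list median. H3K4me3 peaks went the other way, with 25 peaks of median width 575 bp against 802 bp and median fold enrichment 7.62 against 9.03. The 10 POLR1A peaks had a median fold enrichment of 5.10 against 5.44 in their list.

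**Figure D3:**
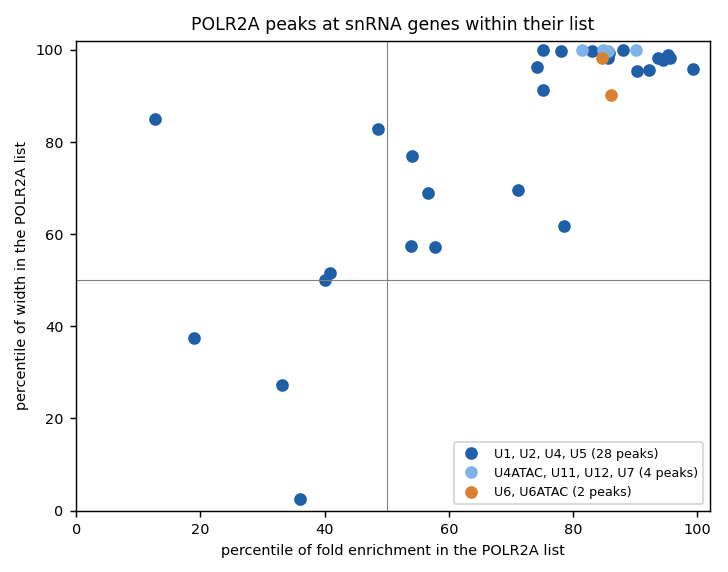
Percentile of fold enrichment (x axis) and of width (y axis) within the POLR2A list for the 34 distinct peaks at snRNA genes, coloured by class; grey lines mark the list medians. Most peaks gather at the upper right, where 21 lie in the widest 10%, and the point at the lowest width is the second peak of RNU1-2, 132 bp wide.

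Over all POLR2A peaks of the list, 50% (10006 of 19997) overlapped an H3K4me3 peak and 13.7% a POLR1A peak. At members these shares were 55.9% (19 of 34, 37.9 to 72.8%) and 26.5% (9 of 34, 12.9 to 44.4%). Both intervals include the share of the list. Where POLR1A and POLR2A met, at 9 members, each POLR1A peak lay wholly inside the POLR2A peak. Their summits were 0 to 223 bp apart, with a median of 80 bp.

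POLR2A lay nearer to the gene than H3K4me3. At the 18 members with both, the nearest POLR2A summit was closer to the gene in 15, level in 2 and farther in 1, RNVU1-14, where they lay at 156 and 152 bp. The median distance was 46.5 bp for POLR2A and 194.5 bp for H3K4me3, counted as 0 inside the gene. RNU12 had the widest separation, with POLR2A at 155 bp and H3K4me3 at 869 bp. These summits lie on opposite sides of RNU12, and an end of POLDIP3 lies 361 bp from it. RNU7-1 and RNU6-2 lie 383 and 399 bp from ends of C12orf57 and TMEM259, and SIRT4 has an end at RNU4-2. Whether the H3K4me3 peaks at such genes belong to the neighbour cannot be told apart. RNVU1-31 and RNVU1-1 had both summits inside the gene. RNU4-1 and RNU4-2 share their H3K4me3 peak, so these 18 are not independent.

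**Figure D4:**
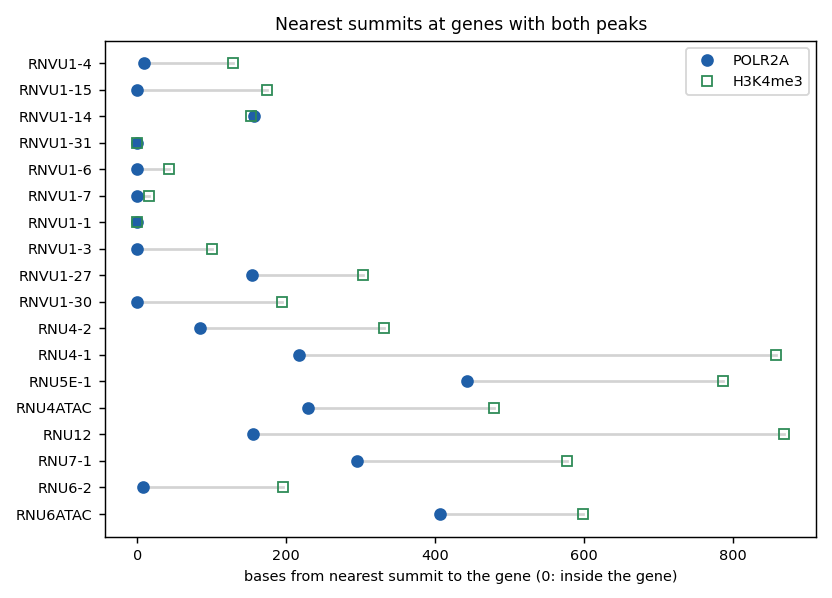
Distance in bases (x axis) from the gene to the nearest POLR2A summit (filled circles) and H3K4me3 summit (open squares) at the 18 snRNA genes with both peaks, 0 meaning inside the gene. The circle lies left of the square in 15 genes, with medians of 46.5 and 194.5 bp.

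**Figure D5:**
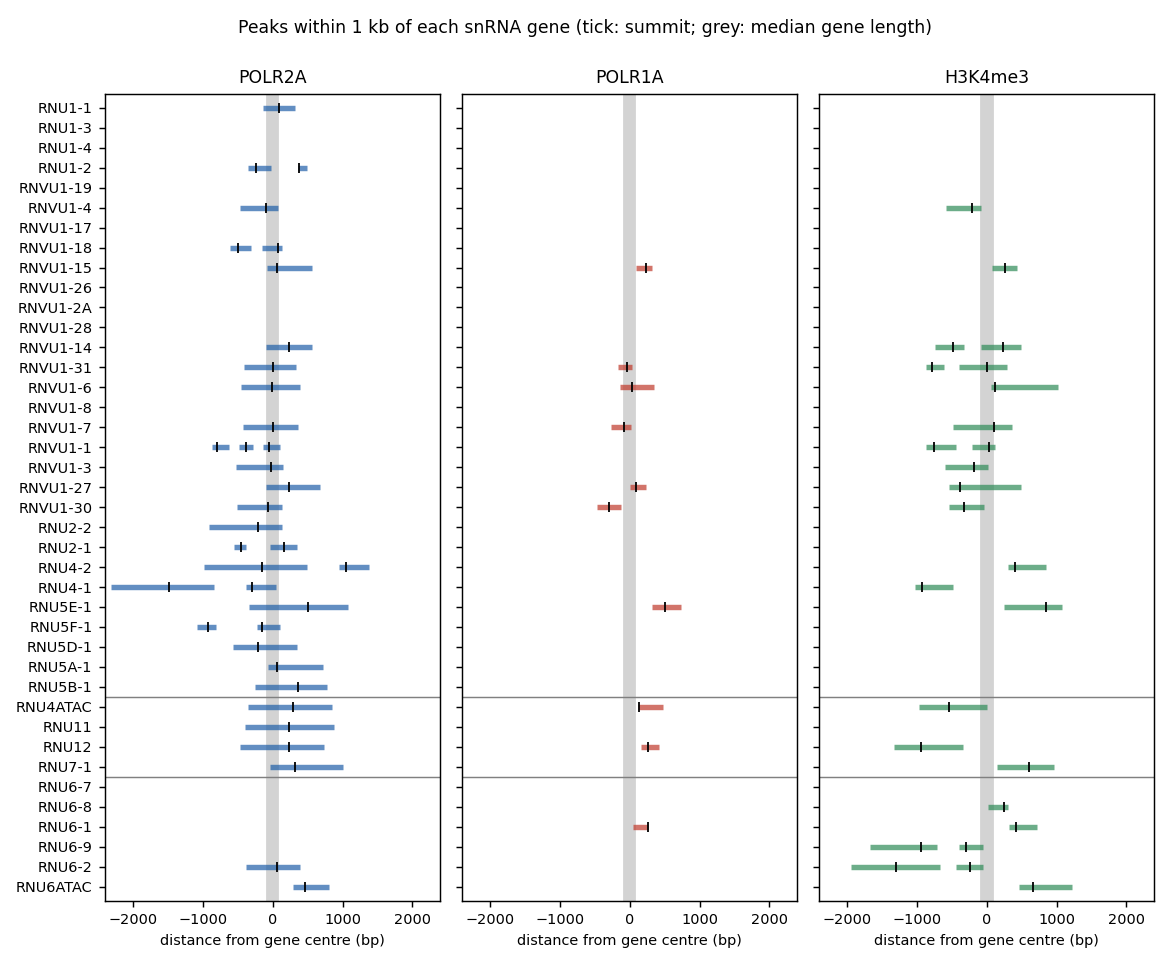
Position of each peak within 1 kb relative to the gene centre (x axis, bp, low coordinates at left and not turned by strand), with black ticks for summits and grey for the median gene length. POLR2A bars cross the gene in 27 of 28 genes, all but RNU6ATAC, and H3K4me3 bars in 12 of 21.

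The pseudogenes of these families, which carry related sequence, had POLR2A at shares near or below the 6.3% of other short genes. POLR2A lay at 8 of 113 U1 pseudogenes (7.08%, 3.11 to 13.5%), 3 of 67 for U2 (4.48%), 2 of 89 for U4 (2.25%), 2 of 29 for U5 (6.9%, 0.846 to 22.8%) and 16 of 1269 for U6 (1.26%, 0.722 to 2.04%). H3K9me3 lay at 12 of 1269 U6 pseudogenes (0.946%, 0.49 to 1.65%).

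Other short genes made by Pol III were compared with the U6 genes by their lists. Among 7 with an upstream promoter of the U6 kind, 3 had POLR2A, 2 POLR1A, 4 H3K4me3 and 0 H3K9me3. Over other genes of at most 300 bp the shares were 6.3%, 1.78%, 6.31% and 1.44%. Counts in such short lists are only a description, and distances to neighbouring gene ends were not examined for them. RN7SK, the RNA that restrains the elongation factor P-TEFb, had POLR2A of 13.1 and POLR1A of 6.0, and RMRP, the RNA of RNase MRP, had 10.9 and 5.04. RNY5 had POLR2A of 6.26. RPPH1, RNY3 and RNY4 had no peak of any list, like RNU6-7. Among 6 genes with promoter elements inside the gene, 5 had POLR2A, 2 POLR1A, 5 H3K4me3 and 0 H3K9me3. RN7SL1 and RN7SL2, near-identical copies of the signal recognition particle RNA, had POLR2A of 14.8 and 13.8 and POLR1A of 6.04 and 6.37, and the vault RNA genes VTRNA1-2, VTRNA1-1 and VTRNA1-3 had POLR2A of 9.5, 6.96 and 6.0.

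The protein genes that make and use snRNAs were examined at both gene ends. Searched in the same way, 41.3% of all 19817 protein-coding genes had POLR2A at either end, 54.6% H3K4me3, 11.2% POLR1A and 2.7% H3K9me3. Among 16 genes listed as factors of snRNA or other Pol III transcription, 13 had POLR2A (81.2%), 15 H3K4me3 (93.8%), 6 POLR1A (37.5%) and 2 H3K9me3 (12.5%). ZNF143, an activator of snRNA genes, had POLR2A of 20.3 and POLR1A of 9.6, ELL of the little elongation complex 20.2 and 12.2, and TBP 16.0 and 7.37. POU2F1 had POLR2A of 16.0 without POLR1A. Of the 5 SNAPc subunit genes, SNAPC1, SNAPC2, SNAPC3 and SNAPC5 had POLR2A (10.3, 6.88, 9.03 and 13.8) and SNAPC4 had H3K4me3 only. Of the remaining factors, ICE1 (13.9 and 5.17) and ICE2 (11.8 and 4.25) had both polymerases, and GTF2B (11.2), GTF2A1 (7.89) and BRF2 (6.08) had POLR2A alone.

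Integrator cleaves the 3′ end of Pol II-made snRNAs, and 12 of its 15 subunit genes had POLR2A, 14 H3K4me3 (93.3%), 5 POLR1A (33.3%) and 0 H3K9me3. INTS6 had 25.9 and INTS7 21.1, the latter with POLR1A of 6.75. Both polymerases also lay at INTS4 (17.3 for POLR2A and 7.29 for POLR1A), INTS13 (13.2 and 5.17), INTS10 (12.6 and 7.24) and INTS8 (9.58 and 4.67). POLR2A without POLR1A lay at INTS9 (18.6), INTS14 (12.8), INTS5 (10.5), INTS1 (9.2), INTS12 (5.74) and INTS2 (5.4).

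Among 27 genes for proteins of the snRNPs, 20 had POLR2A (74.1%), 24 H3K4me3 (88.9%), 9 POLR1A (33.3%) and 2 H3K9me3. SNRNP70, which binds U1, had POLR2A of 24.5, and SNRPA, another U1 protein, had 15.9 with POLR1A of 9.17. Of the genes for the Sm ring shared by the Pol II-made snRNAs, SNRPB (15.7 for POLR2A and 6.58 for POLR1A), SNRPD2 (15.0 and 6.98) and SNRPG (8.88 and 3.4) had both polymerases, and SNRPD3 (14.3), SNRPD1 (11.4), SNRPE (10.4) and SNRPF (6.98) had POLR2A alone. All 7 Sm genes thus had POLR2A. Of the LSM genes, whose products bind U6, LSM4 had both (11.6 and 7.71), and LSM3 (16.3), LSM5 (14.3) and LSM8 (6.2) had POLR2A alone. Both polymerases also lay at PRPF4 (9.88 and 6.07), SNRPC (8.01 and 5.06), EFTUD2 (6.17 and 4.64) and PRPF3 (4.28 and 4.18), and POLR2A alone at SNRNP200 (11.3), SNRNP40 (10.2) and SNRPB2 (4.48).

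Among 19 genes for export, modification and assembly of snRNAs, 13 had POLR2A (68.4%), 16 H3K4me3 (84.2%), 5 POLR1A (26.3%) and 2 H3K9me3, with NCBP2 of the cap-binding complex highest at 17.0. Both polymerases lay at LARP7 (13.6 and 5.91), NCBP1 (13.5 and 5.67), STRAP (11.1 and 5.21), DDX20 (10.4 and 4.9) and MEPCE (9.26 and 4.55). POLR2A alone lay at WRAP53 (10.9), METTL16 (10.3), GEMIN7 (10.2), GEMIN2 (7.38), TGS1 (6.55), COIL (5.68) and GEMIN8 (5.08). In each of these 4 lists, as over all protein-coding genes, more genes had H3K4me3 than POLR2A, whereas among the Pol II class of snRNA genes 13 had H3K4me3 and 22 had POLR2A. A protein-coding gene offers both ends of a long body to the search and a snRNA gene 1 short window, so the shares are not on equal terms.

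Some of these counts moved with the threshold, the list length or the neighbouring genes. When peaks with a −log10 q under 5 were left out, POLR1A lay at 3 of 30 Pol II class genes, down from 7, and at 0 of 6 Pol III class genes, down from 1. With every list reduced to its 3812 strongest peaks, POLR2A lay at 11 of 30 Pol II class genes and H3K4me3 at 1. The background shares above are for the full lists, so these reduced counts have no share to stand beside. Away from protein-coding gene ends by over 2 kb, POLR2A lay at 19 of 27 Pol II class genes, beside 22 of 30 in all. In the Pol III class it lay at 1 of 4, beside 2 of 6 in all.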

How the data were processed

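CUT&Tag peaks of 4 targets in HCT116 cells were analysed. The lists, in the narrowPeak format of MACS2, hold the authors' fold enrichment (a linear ratio), the deposited −log10 p and −log10 q values and the summit offset of each peak. Tools listed, with no role, in the submitters' processing notes are DESeq2 1.44.0, HTSeq 2.0.2, RSEM 1.3.3, deepTools 3.1.1, SAMtools 1.6, STAR and FastQC 0.12.0. The notes name hg38 and GRCh38 as builds. Not given in the sources used here were the caller's settings and control, any pooling of replicates and the treatment of repeated sequence.

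Peaks on chromosomes 1 to 22 and X were set against a RefSeq table of GRCh38.p14, with 58415 genes kept after scaffold and patch rows were left out. The table gives no strand, so distances are to the gene body. A peak counted when at least 1 base lay within 1000 bp of the gene body. For genes longer than 1000 bp in the gene lists, and for all protein-coding genes, the window was 1000 bp on each side of a gene end. Shares carry Clopper-Pearson 95% intervals for counting error only. Neighbouring genes and near-identical copies share peaks and reads, so genes are not replicates. Overlap counting was tested on simulated data. Python 3.11.15, pandas 2.3.3, scipy 1.17.1, biopython 1.88 and matplotlib 3.10.9 were used.

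Members and lists were chosen with earlier results of these data known. Every member with a peak is named with values, members without any are named in groups, and genes of the other lists are named where they held a polymerase peak. The planned search of the members' own promoters could not be made, since 0 of 40 had an entry in the promoter table. Windows of neighbouring genes were read in their place. Alternatives covered window size, threshold, list length, overlap, shared windows and neighbouring genes.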

Additional observations from a re-analysis of the deposited data

How the results depend on the processing

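No paired analysis was possible because each target has 1 list without replicate columns, and leaving out a replicate was impossible for the same reason. The planned exclusion of near-identical copies by promoter identity was not run, since the members have no promoter entry. Leaving out H3K9me3 in the Pol III class, which was 0 throughout, 52 of 63 class counts stayed within 1.5 times the reported count. With equal list lengths, POLR2A in the Pol II class fell to 11 of 30, H3K4me3 to 1 of 30 in the Pol II class and 1 of 6 in the Pol III class, and H3K9me3 in the Pol II class to 0. At a −log10 q of at least 5, POLR1A fell to 3 in the Pol II class and 0 in the Pol III class, and H3K9me3 in the Pol II class to 0. Away from protein-coding gene ends, the Pol III class kept 4 genes, of which 1 had POLR2A and 3 H3K4me3, beside 2 and 5 of all 6. For peaks touching the gene body, an alternative chosen after seeing the data, the Pol III class had 1 with POLR2A and 2 with H3K4me3. The shorter lists and the stricter threshold hold fewer peaks, and the class away from gene ends fewer genes, by construction. For the other changes the cause was not tested. Unknown read depth and the lack of replicates limit every count.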

Other observations

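Beside RNU2-1, the RefSeq table holds 13 further snRNA entries of 189 to 192 bp without a family symbol, between chr17:43239921-43240111 and chr17:43367899-43368087. They fall outside the symbol rule and were chosen after their values were seen. Within 1 kb, 10 had a POLR2A peak, 3 POLR1A, 4 H3K4me3 and 6 H3K9me3, whereas RNU2-1 itself had only POLR2A. Over other genes of at most 300 bp the shares were 6.3%, 1.78%, 6.31% and 1.44%. The windows of LOC124904135 and LOC124904136 overlap, and both gave POLR2A of 16.0 and H3K9me3 of 9.12. The entries are therefore not independent. LOC124904138 had POLR2A of 50.1-fold, POLR1A of 20.1, H3K4me3 of 13.6 and H3K9me3 of 13.3, against the POLR2A value of 22 that was highest among members. LOC124904137 had H3K4me3 of 35.0, which is the highest fold enrichment in that list, and H3K9me3 of 18.9. LOC124904142 had all 4 targets as well. The part of read assignment among the near-identical copies of this array in these values was not tested.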
